A study of Homo sapiens with 16 samples.

Results

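The 6 RNA-seq libraries described here compare clone 13 of a double knockout (DKO) with the MITFKO line in which it was made, both in SKMEL28, an established human melanoma line with an activating BRAF mutation. They were chosen by genotype and clone label alone and are 6 of the 16 libraries of the series. Clone 13, made by CRISPR-Cas9 editing of TFE3, carried the labels MITFKO and TFE3KO and gave 3 libraries, and the MITFKO line, whose TFE3 was not edited, gave 3 libraries. A second DKO clone, clone 3, with 3 libraries of the same genotype label, is described only where clone 13 was set against it. Its libraries and 1 wild-type SKMEL28 library also entered the model behind every call, with its filter, scaling and estimate of spread. Every library came from a separate flask in RPMI with 10% serum and 1% penicillin/streptomycin, with fresh medium 24 h before harvest. Clone 13 is 1 edited clone, so p-values measure how flasks varied, with a spread shared by all groups of the model. They say nothing of how other clones would vary.

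MITF, TFE3, TFEB and TFEC are related transcription factors that bind E-box sequences as dimers. MITF governs pigment cell genes, while TFE3 and TFEB are held in the cytoplasm by the kinase complex mTORC1, through folliculin and the Rag GTPases, and drive genes of lysosomes and autophagy once released. ATF4 is a separate factor, translated when amino acids run short or the endoplasmic reticulum is stressed, that drives genes of amino acid synthesis, uptake and tRNA charging.

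Clone 13 kept most of its TFE3 mRNA. TFE3 stood at 42.5, 46.8 and 47.9 CPM (counts relative to library size, scaled between libraries) in clone 13, against 70.3, 72.3 and 77.5 CPM in MITFKO. The libraries did not overlap, and TFE3 in clone 13 was 1.6-fold lower (log2 fold change -0.68 ± 0.09 SE, adjusted p = 4.15e-06), where every adjusted p comes from the quasi-likelihood test of edgeR after Benjamini-Hochberg correction over all genes. In clone 3 the same gene was at 8.13, 8.54 and 11.4 CPM, and the direct comparison of clone 13 with clone 3 gave a log2 difference of 2.29 (adjusted p = 2.5e-12). MITF mRNA was higher in clone 13, at 840, 944 and 827 CPM against 527, 499 and 468 CPM in MITFKO (log2 fold change 0.81 ± 0.06 SE, adjusted p = 9.77e-10). TFEB was scarce, at 1.18, 1.31 and 1.61 CPM in clone 13 and 1.30, 1.76 and 1.69 CPM in MITFKO, with overlapping libraries and no call (adjusted p = 0.701). TFEC had no count in any clone 13 library and could not be tested. The counts do not tell edited transcripts from intact ones, so none of these values measures protein.

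Replicate 2 of clone 13 stood apart from the other two. Of 10454 genes with at least 5 CPM, 48 lay more than 2-fold from the mean of the other clone 13 libraries in replicate 2, 42 of them above it, against 5 genes in replicate 1 and 3 in replicate 3. Totals ran from 18788189 to 23048354 counts in clone 13 and from 18891915 to 20445904 in MITFKO, and the 10 most abundant genes took 7.41 to 8.56% of the counts in clone 13 and 4.97 to 5.09% in MITFKO. Hypoxia-induced and glycolytic genes were higher in replicate 2 than in replicates 1 and 3, by a median of 0.53 and 0.33 on the log2 scale, and genes of DNA replication and mitosis were lower, with medians of -0.36 and -0.40. The count of each gene list against MITFKO is therefore given with and without that library. Melanoma lineage markers were present: SOX10, the neural crest factor that melanoma cells retain, stood at 926, 991 and 927 CPM in clone 13 and 784, 822 and 855 CPM in MITFKO, while TYRP1 was at 0 in clone 13 and at or below 0.101 CPM in MITFKO.

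Of 14605 genes tested, 2994 rose in clone 13 (20.5%) and 2957 fell (20.2%), at an adjusted p under 0.05. Most of these changes were small, with a median size of 0.46 on the log2 scale, and 351 rises (2.40%) and 412 falls (2.82%) reached 2-fold. Without replicate 2, 3168 of 14547 genes rose (21.8%) and 2910 fell (20%), 280 (1.92%) and 424 (2.91%) of them at least 2-fold. Of the calls, 2757 rises and 2615 falls were made both with and without that library, none changed direction, 579 were lost without it and 706 were made only without it. The libraries of the 2 groups did not overlap for 50.2% of genes tested, so a lack of overlap alone sets no gene apart here.

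The genes that fell furthest were VAMP5, LAMP3, ZNF320, VAMP8, SLC5A4, IL24, ADM2, PRR9, GAREM2 and ERVMER34-1. VAMP5 and VAMP8, a pair of membrane fusion (SNARE) proteins, the second acting at autophagosome and endosome fusion, were nearly lost. VAMP5 stood at 0.282, 0.145 and 0.332 CPM in clone 13, against 8.33, 6.49 and 9.35 CPM in MITFKO (log2 fold change -4.96 ± 0.29 SE, adjusted p = 1.64e-11). VAMP8 stood at 1.01, 0.63 and 0.522 CPM in clone 13, against 12.4, 13.9 and 13.6 CPM in MITFKO (log2 fold change -4.22 ± 0.23 SE, adjusted p = 4.9e-12). They are neighbours on chromosome 2, and the tested genes on either side moved little and upward, GGCX by 0.41 and RNF181 by 0.32 on the log2 scale. In clone 3 neither was low, at 15.5, 19.1 and 16.0 CPM for VAMP5 and 9.08, 10.3 and 12.2 CPM for VAMP8.

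LAMP3, a lysosomal membrane protein of dendritic cells that stress responses also induce, stood at 0.338, 1.02 and 0.427 CPM in clone 13, against 17.3, 16.5 and 15.2 CPM in MITFKO (log2 fold change -4.75 ± 0.28 SE, adjusted p = 2.05e-11). IL24, a cytokine first found in differentiating melanoma cells, stood at 16.3, 13.0 and 16.0 CPM in clone 13, against 107, 121 and 110 CPM in MITFKO (-2.90 ± 0.10 SE, adjusted p = 2.2e-15). SLC5A4, a member of the sodium-glucose transporter family, stood at 2.31, 1.502 and 2.61 CPM in clone 13, against 27.0, 26.5 and 27.7 CPM in MITFKO. In all of these genes the highest clone 13 library lay far below the lowest MITFKO library. The naming rule itself required no overlap and a call without replicate 2. Without that library the falls were -5.38 for LAMP3, -2.80 for IL24 and -3.44 for SLC5A4.

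**Figure D1:**
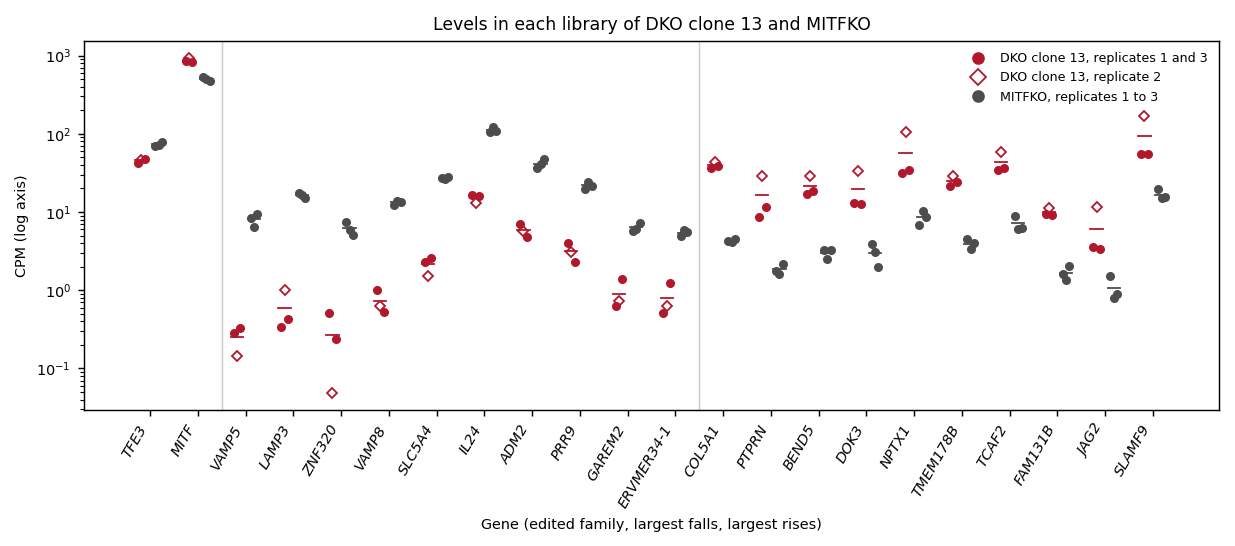
CPM on a log axis for TFE3, MITF and the 10 largest falls and 10 largest rises in DKO clone 13 (red, open diamonds for replicate 2) and MITFKO (grey), 1 point per library with a bar at the mean of 3. The libraries of clone 13 and MITFKO do not overlap in any gene shown, which the rule for the largest changes required. Replicate 2 is far above replicates 1 and 3 in PTPRN, NPTX1, JAG2, SLAMF9 and DOK3.

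The largest rises were COL5A1, PTPRN, BEND5, DOK3, NPTX1, TMEM178B, TCAF2, FAM131B, JAG2 and SLAMF9. COL5A1, a chain of the fibril-forming collagen V, stood at 36.05, 43.8 and 39.2 CPM in clone 13, against 4.31, 4.12 and 4.48 CPM in MITFKO (log2 fold change 3.20 ± 0.13 SE, adjusted p = 3.09e-14). Its 3 clone 13 libraries lay close together, and without replicate 2 the value was 3.13. The Notch ligand JAG2, the secreted pentraxin NPTX1, the SLAM family receptor SLAMF9, the adaptor gene DOK3 and PTPRN, a secretory granule protein of the tyrosine phosphatase family, rested more on replicate 2. SLAMF9 stood at 55.7, 170 and 55.5 CPM in clone 13, against 19.6, 15.0 and 15.3 CPM in MITFKO, a log2 fold change of 2.49 ± 0.59 SE with all libraries (adjusted p = 0.0156) and 1.74 without replicate 2 (adjusted p = 0.0141). That call ended without MITFKO replicate 2 (adjusted p = 0.06) or replicate 3 (0.0573). NPTX1 stood at 31.3, 104 and 34.0 CPM in clone 13, against 6.85, 10.3 and 8.66 CPM in MITFKO (2.72, and 1.93 without replicate 2). JAG2 stood at 3.55, 11.4 and 3.37 CPM in clone 13, against 1.53, 0.805 and 0.896 CPM in MITFKO (2.50, and 1.68 without replicate 2). DOK3 stood at 13.2, 33.9 and 12.5 CPM in clone 13, against 3.94, 3.07 and 1.99 CPM in MITFKO (2.72, and 2.10 without replicate 2). PTPRN stood at 8.56, 28.97 and 11.7 CPM in clone 13, against 1.76, 1.61 and 2.19 CPM in MITFKO (3.15, and 2.46 without replicate 2).

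Targets of ATF4 were lower in clone 13. Of 30 tested members of that list, 26 fell, 1 rose and 3 were not called, with a median log2 fold change of -1.29, where the median over all genes tested was -0.02. ATF4 itself fell, to 377, 373 and 388 CPM in clone 13, against 605, 645 and 653 CPM in MITFKO (log2 fold change -0.74 ± 0.05 SE, adjusted p = 4.9e-10). The hormone gene ADM2 stood at 7.04, 5.76 and 4.75 CPM in clone 13, against 36.4, 41.0 and 47.0 CPM in MITFKO (-2.83 ± 0.15 SE, adjusted p = 2.96e-12). DDIT3, which encodes the stress factor CHOP, stood at 17.3, 16.2 and 18.2 CPM in clone 13, against 78.8, 89.8 and 84.8 CPM in MITFKO (-2.29 ± 0.09 SE, adjusted p = 2.1e-14). The secreted stress cytokine GDF15 stood at 5.97, 8.57 and 6.55 CPM in clone 13, against 41.7, 44.9 and 44.4 CPM in MITFKO (-2.63 ± 0.13 SE). In ADM2, DDIT3 and GDF15 the libraries of the 2 groups were separated by several fold, and in ATF4 by less than 2-fold.

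ALDH1L2, a mitochondrial folate enzyme, stood at 12.2, 10.8 and 11.1 CPM in clone 13, against 74.3, 73.0 and 67.3 CPM in MITFKO (log2 fold change -2.66 ± 0.10 SE, adjusted p = 1.22e-14). Asparagine synthetase, ASNS, stood at 5.18, 2.71 and 4.32 CPM in clone 13, against 13.6, 14.8 and 15.6 CPM in MITFKO (-1.86 ± 0.21 SE). The serine pathway enzymes PSAT1 and PHGDH fell less, by 0.98 and 0.50 on the log2 scale. ALDH18A1, an enzyme of proline synthesis, was the exception and rose, at 142, 164 and 130 CPM in clone 13 against 89.4, 88.9 and 86.1 CPM in MITFKO (0.72 ± 0.07 SE). Without replicate 2 the list had 26 falls and 2 rises, at a median of -1.17. The genes of the list named here, other than ADM2, ALDH1L2 and GDF15, were picked out after their values were seen.

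**Figure D2:**
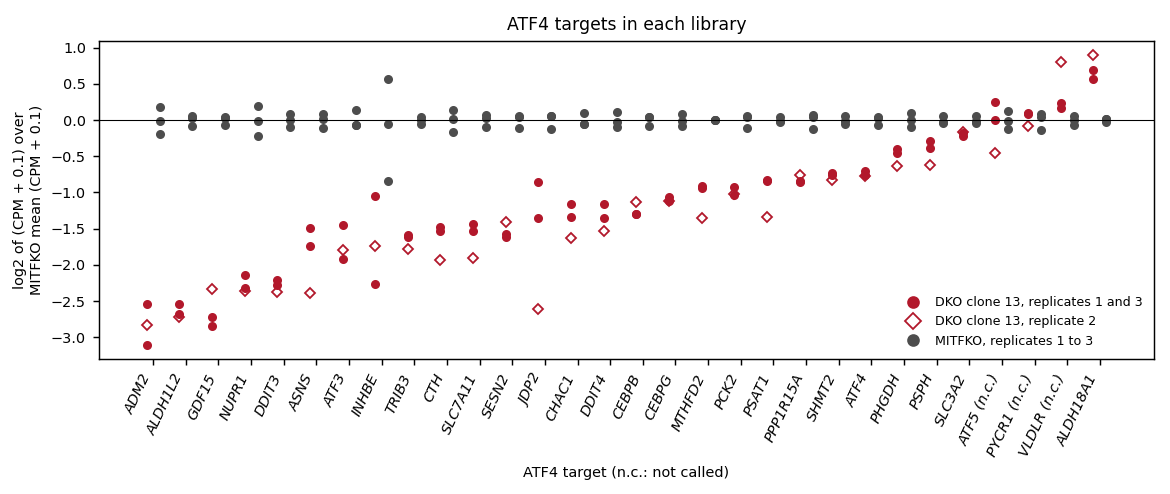
Level of each tested ATF4 target in the 3 libraries of DKO clone 13 (red, open diamonds for replicate 2) and of MITFKO (grey), as the log2 of CPM plus 0.1 over the MITFKO mean plus 0.1. All 26 genes that fell lie below 0 in all clone 13 libraries, replicate 2 lies with the others for most of them, and n.c. marks the 3 genes not called.

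Promoters of the ATF4, tRNA synthetase, lysosomal, V-ATPase and autophagy lists were searched on both strands of the 250 bases before the start site. The motifs were the core of the ATF4 and C/EBP composite element, TGATGNAA, and the E-box CACGTG that MiT/TFE factors bind. TGATGNAA was present in 3 of the 23 promoters of tested ATF4 targets found in the RefSeq table (13.0%), against 1.47% of the 11411 promoters of genes tested here and 3.19% of all 27305 promoters. The 3 promoters with it are given here with the match in capitals, from RefSeq on GRCh38.p14, 5′ to 3′ in the direction of the gene, because all 3 genes fell. Of the 23 promoters of ATF4 targets, 20 belonged to genes that fell. TGATGNAA was also present in 2 of 19 promoters of tRNA synthetases (10.5%), and in none of the lysosomal, V-ATPase or autophagy lists. In CHAC1, which encodes a glutathione-degrading enzyme, the match is on the opposite strand, so its capitals read as the reverse complement. The stretches are ASNS at chr7:97872409-97872658 (minus strand), ATF3 at chr1:212565157-212565406 (plus strand) and CHAC1 at chr15:40953221-40953470 (plus strand).
ASNS: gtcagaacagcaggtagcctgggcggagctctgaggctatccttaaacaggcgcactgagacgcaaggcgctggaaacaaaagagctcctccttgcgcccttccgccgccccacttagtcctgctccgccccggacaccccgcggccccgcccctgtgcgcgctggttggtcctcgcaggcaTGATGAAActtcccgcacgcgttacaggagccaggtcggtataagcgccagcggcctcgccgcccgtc
ATF3: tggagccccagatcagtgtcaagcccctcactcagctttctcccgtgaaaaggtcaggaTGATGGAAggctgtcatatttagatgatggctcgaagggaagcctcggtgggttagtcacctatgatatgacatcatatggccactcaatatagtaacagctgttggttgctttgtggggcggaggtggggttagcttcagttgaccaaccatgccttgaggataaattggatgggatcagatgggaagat
CHAC1: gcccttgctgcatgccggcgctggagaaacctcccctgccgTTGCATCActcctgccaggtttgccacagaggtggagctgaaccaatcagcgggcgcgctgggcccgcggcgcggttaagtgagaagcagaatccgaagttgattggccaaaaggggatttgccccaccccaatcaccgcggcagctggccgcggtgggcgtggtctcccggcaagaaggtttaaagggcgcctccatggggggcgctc
The match ends 61 bases before the start of ASNS and 184 before that of ATF3. CHAC1 stood at 19.0, 15.5 and 21.5 CPM in clone 13, against 46.5, 46.3 and 51.4 CPM in MITFKO, and the stress factor ATF3 at 3.55, 3.88 and 4.94 CPM in clone 13, against 13.0, 15.0 and 13.0 CPM in MITFKO. A match is a description of the letters, and binding was not measured.

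Enzymes that charge tRNAs fell in part, and carriers of amino acids moved both ways. Of 22 tested tRNA synthetases and their partners, 12 fell and 4 rose, at a median log2 fold change of -0.22 (12 and 5 without replicate 2). The glycyl-tRNA synthetase GARS1 stood at 455, 434 and 446 CPM in clone 13, against 732, 759 and 754 CPM in MITFKO (log2 fold change -0.75 ± 0.05 SE, adjusted p = 1.64e-10). Of 22 amino acid transporters, 8 fell and 5 rose with and without replicate 2, beside shares over all genes of 20.2% that fell and 20.5% that rose. The cystine carrier SLC7A11, also an ATF4 and NRF2 target, stood at 157, 122 and 168 CPM in clone 13, against 475, 463 and 423 CPM in MITFKO (-1.61 ± 0.12 SE, adjusted p = 2.23e-06). The glutamate carrier SLC1A1 rose, at 24.95, 33.8 and 27.1 CPM in clone 13 against 12.04, 11.8 and 11.2 CPM in MITFKO (1.29 ± 0.14 SE). Among 21 NRF2 targets, which answer oxidative stress, 8 fell and 7 rose (9 and 8 without replicate 2). Heme oxygenase, HMOX1, stood at 235, 223 and 250 CPM in clone 13, against 507, 542 and 562 CPM in MITFKO (-1.19 ± 0.06 SE, adjusted p = 1.16e-12), while the NADPH-producing malic enzyme ME1 rose by 0.74.

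Folding enzymes of the endoplasmic reticulum went the other way from ATF4 targets. Of 28 tested genes of ER chaperones and the unfolded protein response, 19 rose and 3 fell, at a median log2 fold change of 0.28 (18 and 3 without replicate 2). The calcium-binding chaperone CALR stood at 1394, 1531 and 1421 CPM in clone 13, against 772, 761 and 799 CPM in MITFKO (0.90 ± 0.06 SE, adjusted p = 3.16e-11). The disulfide isomerase PDIA6 stood at 554, 680 and 578 CPM in clone 13, against 324, 335 and 336 CPM in MITFKO (0.86 ± 0.07 SE). The 3 members that fell were ERN1, HERPUD1 and XBP1, by 0.79, 0.71 and 0.17.

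Lysosomal genes, which TFE3 is known to drive, rose more often than they fell in clone 13. Of 44 tested hydrolases and membrane proteins, 28 rose and 6 fell, at a median log2 fold change of 0.31 (27 and 8 without replicate 2, median 0.24). GALNS, an enzyme of keratan sulfate breakdown, stood at 61.3, 79.0 and 67.4 CPM in clone 13, against 33.0, 33.2 and 36.2 CPM in MITFKO (log2 fold change 1.02 ± 0.09 SE, adjusted p = 6.48e-09). The cysteine protease CTSF stood at 42.6, 51.2 and 46.7 CPM in clone 13, against 22.1, 22.2 and 25.8 CPM in MITFKO (1.00 ± 0.10 SE, adjusted p = 4.87e-08). TMEM192, a protein of the lysosomal membrane, fell, at 31.3, 27.1 and 30.1 CPM in clone 13 against 53.4, 62.5 and 53.2 CPM in MITFKO (-0.94 ± 0.10 SE). It lies on chromosome 4, whose genes were lower as a whole, as described further on.

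The E-box CACGTG was present in 9 of the 28 lysosomal promoters found in the table (32.1%) and in 4 of the 16 promoters of V-ATPase subunits (25%), against 8.83% of the promoters of genes tested and 6.49% of all promoters. The other lists searched did not exceed the share of genes tested. It was present in 2 of 34 promoters of autophagy genes (5.88%), 2 of 23 of ATF4 targets (8.7%) and 1 of 19 of tRNA synthetases (5.26%). CTSF, which also rose, had 2 matches and is not shown. Whether genes with the motif rose more often than those without it was not tested. The promoters of GALNS, with 2 matches, and of the aspartic protease CTSD, with 1, were taken from members already called. They are shown because both genes rose and carry the motif that TFE3 and MITF bind. They are at chr16:88856948-88857197 (minus strand) and chr11:1763928-1764177 (minus strand) of GRCh38.p14 in RefSeq, with CACGTG in capitals.
GALNS: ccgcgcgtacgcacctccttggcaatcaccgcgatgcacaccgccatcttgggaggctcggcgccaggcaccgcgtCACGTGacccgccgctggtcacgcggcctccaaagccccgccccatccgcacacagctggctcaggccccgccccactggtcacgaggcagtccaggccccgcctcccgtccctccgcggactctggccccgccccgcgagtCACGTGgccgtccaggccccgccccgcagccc
CTSD: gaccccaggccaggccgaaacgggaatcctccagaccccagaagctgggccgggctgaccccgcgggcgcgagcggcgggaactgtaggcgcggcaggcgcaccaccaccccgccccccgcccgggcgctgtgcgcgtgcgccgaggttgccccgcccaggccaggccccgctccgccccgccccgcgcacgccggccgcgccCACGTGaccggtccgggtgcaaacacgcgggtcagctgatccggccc
CTSD stood at 4243, 5868 and 4265 CPM in clone 13, against 2984, 3084 and 3336 CPM in MITFKO (log2 fold change 0.61 ± 0.12 SE, adjusted p = 0.00238, and 0.45 without replicate 2).

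The counts in other lists of the lysosome and autophagy system stand beside shares over all genes of 20.5% that rose and 20.2% that fell, and several lay near them. Of 23 tested V-ATPase subunits, which acidify the lysosome, 8 rose and 6 fell. Without clone 13 replicate 2, 9 rose and 3 fell, and the falls numbered 2 without MITFKO replicate 1. The accessory subunit ATP6AP2 stood at 231, 258 and 219 CPM in clone 13, against 148, 151 and 133 CPM in MITFKO (log2 fold change 0.71 ± 0.07 SE, adjusted p = 4.24e-08). Of 38 autophagy genes, 14 fell and 7 rose (15 and 7 without clone 13 replicate 2), and the rises numbered 4 without MITFKO replicate 2 or 3. ATG14, a subunit of the lipid kinase that starts autophagosomes, stood at 21.9, 22.5 and 25.3 CPM in clone 13, against 40.2, 43.5 and 36.7 CPM in MITFKO (-0.79 ± 0.10 SE), and WIPI1, which reads the lipid that kinase makes, fell by 0.57. Of 34 genes of folliculin, Rag GTPases and mTORC1 inputs, 9 fell and 8 rose with and without clone 13 replicate 2. The Rag GTPase gene RRAGA rose, at 84.5, 125 and 87.4 CPM in clone 13 against 57.1, 55.5 and 57.5 CPM in MITFKO (0.81, and 0.61 without replicate 2), while the inhibitors of mTORC1 SESN2 and DDIT4, both also ATF4 targets, fell by 1.54 and 1.34. FLCN, which encodes folliculin, fell by 0.34.

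Glycolytic and hypoxia-induced genes rose in all 3 clone 13 libraries and furthest in replicate 2. Of 21 tested glycolytic genes, 17 rose and 1 fell, at a median log2 fold change of 1.04 (16 and 2 without replicate 2, median 0.93). Lactate dehydrogenase A, LDHA, stood at 4186, 4938 and 3999 CPM in clone 13, against 1825, 1666 and 1728 CPM in MITFKO (1.33 ± 0.07 SE, adjusted p = 1.64e-11). PGK1, the first ATP-yielding enzyme of the pathway, stood at 1475, 2036 and 1469 CPM in clone 13, against 543, 522 and 532 CPM in MITFKO (1.64, and 1.47 without replicate 2). Even the lowest clone 13 library exceeded the highest MITFKO library by more than 2-fold in both genes. The member that fell with all libraries was the glucose carrier SLC2A3, by 0.53, and it was not called lower without clone 13 replicate 1 or 3 or MITFKO replicate 1.

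Of 24 hypoxia-induced genes, 16 rose and 1 fell, at a median of 1.14, and without replicate 2 the counts were the same and the median 0.89. BNIP3, a mitophagy receptor, stood at 265, 391 and 260 CPM in clone 13, against 81.4, 69.7 and 74.0 CPM in MITFKO (log2 fold change 2.02 ± 0.19 SE, adjusted p = 0.000159). The carbonic anhydrase CA9 stood at 19.0, 46.5 and 15.5 CPM in clone 13, against 5.69, 4.63 and 5.12 CPM in MITFKO (2.39, and 1.75 without replicate 2). NDRG1 stood at 483, 1110 and 494 CPM in clone 13, against 263, 236 and 262 CPM in MITFKO, and its rise of 1.46 (0.95 without replicate 2) was no longer called without any 1 of the MITFKO libraries (adjusted p = 0.0696 to 0.0822). The rise of INSIG2, 1.42, ended without MITFKO replicate 2 or 3 (adjusted p = 0.0651 and 0.0618). VEGFA, the vascular growth factor that hypoxia induces in most cells, was the member that fell, at 95.2, 139 and 88.6 CPM in clone 13 against 142, 148 and 146 CPM in MITFKO (-0.43, adjusted p = 0.0391). Its fall was called with all libraries and without replicate 2 of clone 13 (-0.65), and in none of the other 5 fits that left out 1 library of clone 13 or MITFKO.

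**Figure D3:**
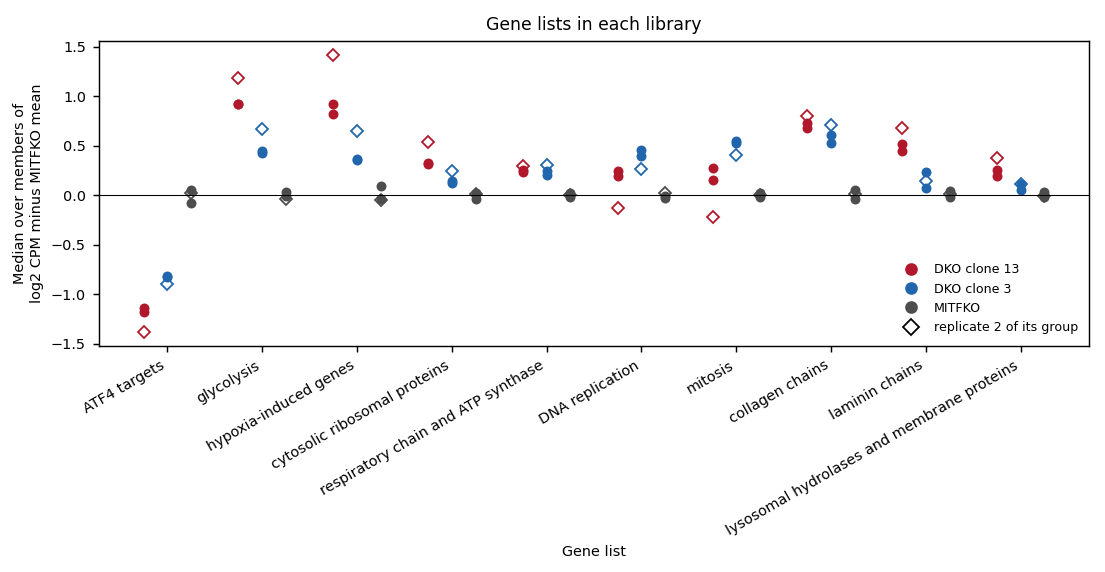
Median over the members of 10 gene lists of log2 CPM minus the MITFKO mean, in each library of DKO clone 13 (red), DKO clone 3 (blue) and MITFKO (grey), with open diamonds for replicate 2 of each group. Replicate 2 of clone 13 is highest of its group for hypoxia-induced genes (1.42) and lies below 0 for DNA replication (-0.13) and mitosis (-0.22), where replicates 1 and 3 lie above 0.

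Most ribosomal protein and respiratory chain genes rose, by small amounts. Of 44 cytosolic ribosomal proteins, 41 rose and none fell, at a median log2 fold change of 0.39 (40 and none without replicate 2, median 0.33). The median of the list relative to the MITFKO mean was 0.32, 0.54 and 0.32 in the 3 clone 13 libraries, highest in replicate 2. RPS9 stood at 163, 213 and 178 CPM in clone 13, against 110, 118 and 120 CPM in MITFKO (0.68 ± 0.08 SE, adjusted p = 2.93e-06). Counts of ribosomal protein genes can be shared with near-identical pseudogenes, so single values are uncertain. Of 42 genes of the respiratory chain and ATP synthase, 31 rose and 2 fell, at a median of 0.27 (33 and 3 without replicate 2). UQCRQ, a subunit of complex III, stood at 129, 149 and 125 CPM in clone 13, against 93.6, 88.8 and 89.0 CPM in MITFKO (0.57 ± 0.07 SE, adjusted p = 4.78e-07). Of 26 genes of cholesterol synthesis and uptake, 12 rose and 4 fell (13 and 3 without replicate 2). PMVK, an enzyme of the mevalonate pathway, stood at 36.7, 34.8 and 31.4 CPM in clone 13, against 23.8, 20.9 and 19.8 CPM in MITFKO (0.67 ± 0.10 SE).

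Counts of cell cycle genes depended on replicate 2. In bulk libraries, fewer cells in a phase and less RNA per cell cannot be told apart. Over all genes tested, 20.5% rose and 20.2% fell with all libraries. In that setting the counts of DNA replication genes and the rises of mitosis genes lay near these shares. The falls of mitosis genes lay below them. Of 37 DNA replication genes, 10 rose and 6 fell with all libraries, and 21 rose and 5 fell without replicate 2. Of 34 mitosis genes, 7 rose and 2 fell with all libraries, and 19 rose and 1 fell without it. The kinetochore kinase BUB1 rose either way, at 143, 121 and 126 CPM in clone 13 against 87.5, 81.2 and 77.8 CPM in MITFKO (log2 fold change 0.66 ± 0.07 SE, adjusted p = 2.41e-07). The proliferation antigen MKI67 was not called with all libraries (adjusted p = 0.385) or without replicate 2 (adjusted p = 0.776), at 113, 88.6 and 123 CPM in clone 13 and 118, 117 and 115 CPM in MITFKO. The replication rises numbered 6 without clone 13 replicate 3 or MITFKO replicate 1. Thymidine kinase, TK1, rose, at 127, 109 and 108 CPM in clone 13 against 61.7, 61.3 and 59.8 CPM in MITFKO (0.91 ± 0.07 SE), and the polymerase gene POLE fell by 0.54. Of 21 p53 targets, 10 fell and 3 rose with and without replicate 2. The cell cycle inhibitor CDKN1A stood at 13.8, 21.2 and 16.6 CPM in clone 13, against 28.2, 28.2 and 32.4 CPM in MITFKO (-0.78 ± 0.13 SE, adjusted p = 6.7e-05).

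Genes of ERK output, which the mutant BRAF of this line keeps active, fell more often than they rose. Of 20 tested, 13 fell and 2 rose, at a median log2 fold change of -0.39 (14 and 2 without replicate 2). With chromosomes 2, 3, 4 and 12 left out, a setting described further on, 9 of 14 fell and 2 rose, at a median of -0.26. The ERK phosphatase DUSP6 stood at 125, 140 and 131 CPM in clone 13, against 200, 199 and 204 CPM in MITFKO (-0.61 ± 0.06 SE, adjusted p = 5.45e-08). The ETS factor ETV5 stood at 266, 211 and 261 CPM in clone 13, against 403, 406 and 412 CPM in MITFKO (-0.73 ± 0.07 SE, adjusted p = 2.29e-08). DUSP6 lies on chromosome 12 and ETV5 on chromosome 3, so both are among the genes left out in that setting. The cyclin gene CCND1 fell by 0.17, and MYC was not called. Of 13 AP-1 factors, 7 fell and 1 rose with and without clone 13 replicate 2, and the falls numbered 4 without MITFKO replicate 3. MAFF stood at 180, 206 and 187 CPM in clone 13, against 406, 454 and 441 CPM in MITFKO (-1.18 ± 0.07 SE), and MAF rose, at 212, 221 and 211 CPM in clone 13 against 92.1, 82.5 and 85.8 CPM in MITFKO (1.31 ± 0.06 SE). FOS and JUN, the founding members of the family, were not called.

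Collagens, laminins and their receptors rose more often than they fell. Of 26 collagen chains, 12 rose and 2 fell, at a median log2 fold change of 0.82 (14 and 1 without replicate 2, median 0.74). Beside COL5A1, COL11A1, a chain of the fibril-forming collagen XI, stood at 526, 693 and 529 CPM in clone 13, against 195, 190 and 197 CPM in MITFKO (1.59 ± 0.09 SE, adjusted p = 7.65e-10). Of 11 laminin chains, which build basement membranes, 7 rose and none fell, and without replicate 2 there were 6 rises and 1 fall. LAMB1 stood at 509, 523 and 504 CPM in clone 13, against 324, 327 and 332 CPM in MITFKO (0.64 ± 0.05 SE, adjusted p = 1.37e-09). Of 30 integrins and focal adhesion genes, 18 rose and 3 fell (17 and 3 without replicate 2). The common beta chain ITGB1 stood at 674, 689 and 643 CPM in clone 13, against 402, 390 and 378 CPM in MITFKO (0.78 ± 0.05 SE, adjusted p = 1.5e-10). The libraries of the 2 groups were well apart in each of these genes, for which the naming rule required no overlap.

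Of 34 matrix proteoglycans, matricellular proteins and proteases, 18 rose and 6 fell, at a median of 0.46 (19 and 7 without replicate 2). Fibronectin, FN1, stood at 11942, 13388 and 11995 CPM in clone 13, against 5550, 5531 and 5706 CPM in MITFKO (log2 fold change 1.15 ± 0.06 SE, adjusted p = 9.07e-13). LOXL2, an enzyme that crosslinks collagen, stood at 422, 683 and 412 CPM in clone 13, against 106, 102 and 104 CPM in MITFKO (2.28, and 2.00 without replicate 2). Both were at least doubled in every clone 13 library relative to every MITFKO library. Of 21 TGF-beta ligands and targets, 13 rose and 3 fell (14 and 3 without replicate 2). The activin subunit INHBA stood at 35.1, 46.5 and 38.7 CPM in clone 13, against 19.9, 20.3 and 15.6 CPM in MITFKO (1.11 ± 0.13 SE). Of 21 YAP targets, 8 rose and 5 fell (10 and 5 without replicate 2), beside shares over all genes of 20.5% and 20.2%. Among them the ectonucleotidase NT5E rose by 1.22.

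Genes of the invasive melanoma state, a list that shares members with the TGF-beta and matrix lists, rose in 15 and fell in 7 of 29 cases with and without clone 13 replicate 2. The falls numbered 4 without clone 13 replicate 3 or MITFKO replicate 2 or 3. The matricellular protein THBS1 stood at 3139, 2580 and 3106 CPM in clone 13, against 1512, 1501 and 1561 CPM in MITFKO (log2 fold change 0.95 ± 0.08 SE). The inflammatory cytokine IL1B fell, at 16.4, 18.6 and 19.0 CPM in clone 13 against 27.1, 35.9 and 35.9 CPM in MITFKO (-0.87 ± 0.12 SE). Of 12 cadherins and EMT factors, 3 rose and 3 fell (3 and 4 without replicate 2), near the shares over all genes of 20.5 and 20.2%. Vimentin, VIM, rose by 0.65, and the EMT factor SNAI1 fell, at 20.8, 13.7 and 18.9 CPM in clone 13 against 25.3, 26.3 and 29.9 CPM in MITFKO (-0.61 ± 0.13 SE).

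Pigment and neural crest genes split. Of 36 pigment and melanosome genes, 11 rose and 10 fell (10 and 13 without clone 13 replicate 2), and the rises numbered 6 without MITFKO replicate 3. These counts stand beside shares over all genes of 20.5% that rose and 20.2% that fell. QPCT, which cyclises N-terminal glutamine of secreted peptides, stood at 6.93, 7.94 and 6.98 CPM in clone 13, against 35.9, 34.9 and 38.4 CPM in MITFKO (log2 fold change -2.32 ± 0.09 SE, adjusted p = 2.98e-14). GPR143, the ocular albinism receptor, stood at 18.9, 17.9 and 19.5 CPM in clone 13, against 44.6, 43.2 and 42.2 CPM in MITFKO (-1.21 ± 0.09 SE). Tyrosinase, TYR, the key enzyme of melanin synthesis, rose instead, at 284, 314 and 291 CPM in clone 13 against 211, 214 and 213 CPM in MITFKO (0.48 ± 0.06 SE, adjusted p = 4.16e-07), and the copper carrier ATP7A rose by 1.04. Of 23 neural crest and lineage factors, 10 rose and 9 fell (11 and 8 without replicate 2). SOX5 stood at 70.7, 53.5 and 70.2 CPM in clone 13, against 36.5, 30.2 and 31.4 CPM in MITFKO (0.99 ± 0.11 SE), while PAX3, which drives MITF in melanocytes, fell by 0.53.

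Of 27 genes of antigen presentation and interferon response, 6 rose and 5 fell (8 and 4 without clone 13 replicate 2). With all libraries these counts lay near the shares over all genes, 20.5% that rose and 20.2% that fell. The rises numbered 3 without MITFKO replicate 1 or 2. HLA-B stood at 336, 538 and 343 CPM in clone 13, against 237, 255 and 264 CPM in MITFKO, a rise of 0.69 (adjusted p = 0.0365) that was not called without any 1 of the MITFKO libraries (adjusted p = 0.0767 to 0.108). HLA genes share reads between near-identical copies. Summed markers of other cell types stayed low against the summed melanoma lineage markers, 6920 to 8560 CPM in clone 13 and 5640 to 5840 CPM in MITFKO. Of 11 tested lineage markers, 6 rose and 3 fell with and without replicate 2. Keratinocyte markers summed to 64.5 to 73.0 CPM in clone 13 and 41.4 to 46.0 CPM in MITFKO, and fibroblast markers to 74.7 to 87.1 CPM in clone 13 and 50.8 to 60.7 CPM in MITFKO. Of 5 tested markers in each of these lists, 3 keratinocyte and 1 fibroblast marker rose and none fell, with and without replicate 2, while KRT5, DSG1 and DSG3 of keratinocytes and PDPN of fibroblasts had no count in either group. Leukocyte and endothelium markers summed to 169 to 236 CPM in clone 13 and 238 to 246 CPM in MITFKO, nearly all of it the macrophage and lysosome gene CD68, with CDH5 at 0 in both groups. Of 5 tested, 2 fell and none rose (2 fell and 1 rose without replicate 2). The part of other cell types in the results was not tested.

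**Figure D4:**
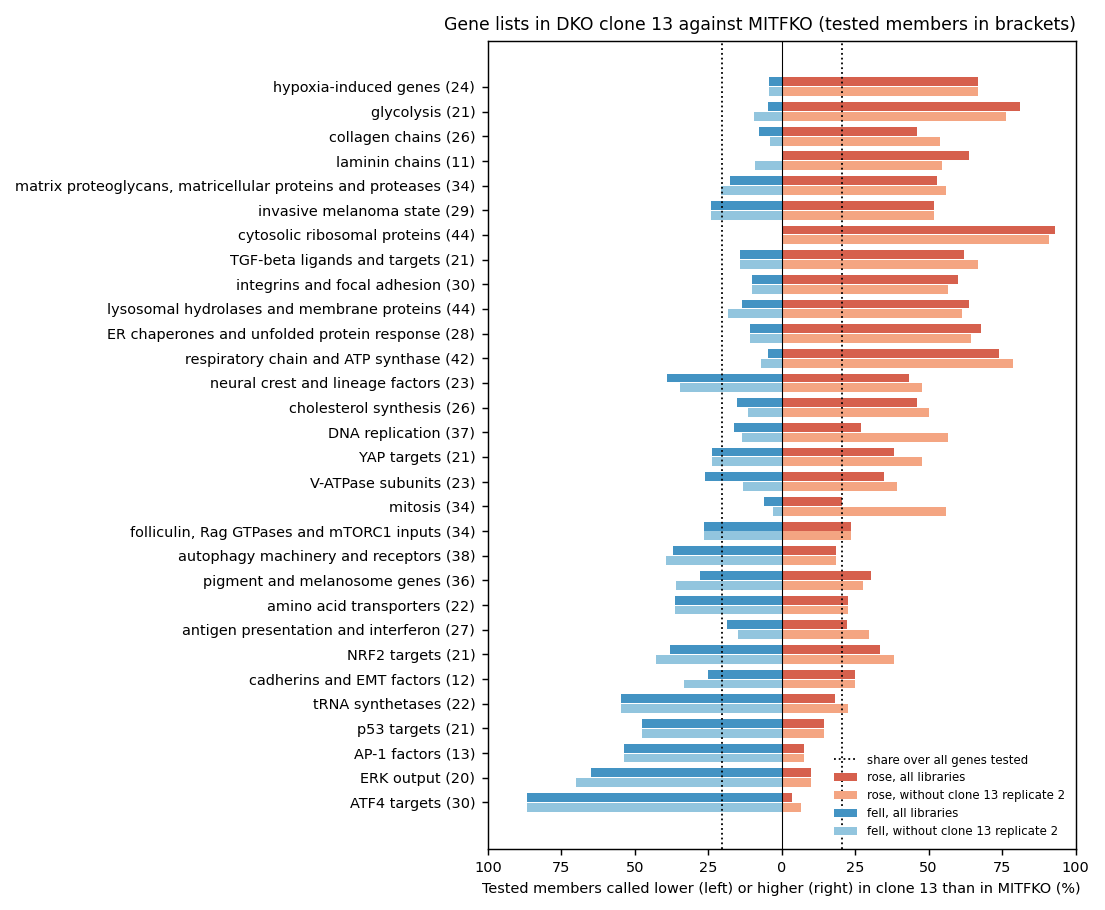
Share of the tested members of each gene list called higher (right) or lower (left) in DKO clone 13 than in MITFKO, with all libraries (dark bars) and without clone 13 replicate 2 (pale bars), and dotted lines at the shares over all genes tested, 20.5 and 20.2%. Bars for mitosis and DNA replication change most between the 2 settings, and ATF4 targets (26 of 30 lower) and ribosomal proteins (41 of 44 higher) stand at the ends.

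Lower genes were clustered along chromosomes, and so were some higher ones. The median log2 fold change of clone 13 against MITFKO was -0.38 over the 528 tested genes of chromosome 4, where 252 fell and 35 rose, and -0.19 over the 983 genes of chromosome 2, where 341 fell and 116 rose. It was -0.11 on chromosome 3 and -0.13 on chromosome 12. In windows of about 40 genes in gene order, windows 12 to 20 of the 20 on chromosome 3 had medians of -0.52 to -0.27, and windows 13 to 18 of the 18 on chromosome 12 had medians of -0.44 to -0.29. Windows 5 to 13 of the 13 on chromosome 4 had medians of -0.63 to -0.33. Upward shifts were seen on chromosome X, with a median of 0.16 over 484 genes, where 148 rose and 55 fell. Windows 1 to 10 of the 24 on chromosome 19 had medians of 0.11 to 0.35. On chromosome 4 the library medians were -0.35, -0.39 and -0.34 in clone 13, so replicate 2 did not stand apart there, and they were between -0.03 and 0.00166 in clone 3. The libraries measure RNA, and whether gene copy number differed in these regions was not tested.

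Chromosomes 2, 3, 4 and 12 held 21.1% of the genes tested, 37.4% of those that fell and 13.9% of those that rose. With them left out, an alternative added after the chromosome medians were seen, 2579 of 11519 genes rose (22.4%) and 1852 fell (16.1%). In that setting 20 of 24 ATF4 targets fell, 14 of 14 glycolytic genes rose, 35 of 35 ribosomal proteins rose, 24 of 36 lysosomal genes rose and 11 of 21 collagen chains rose. Autophagy genes that fell numbered 7 of 28, and DNA replication genes that fell numbered 1 of 30. The window that holds MITF had a median of 0.02 and the window that holds TFE3 one of 0.20.

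**Figure D5:**
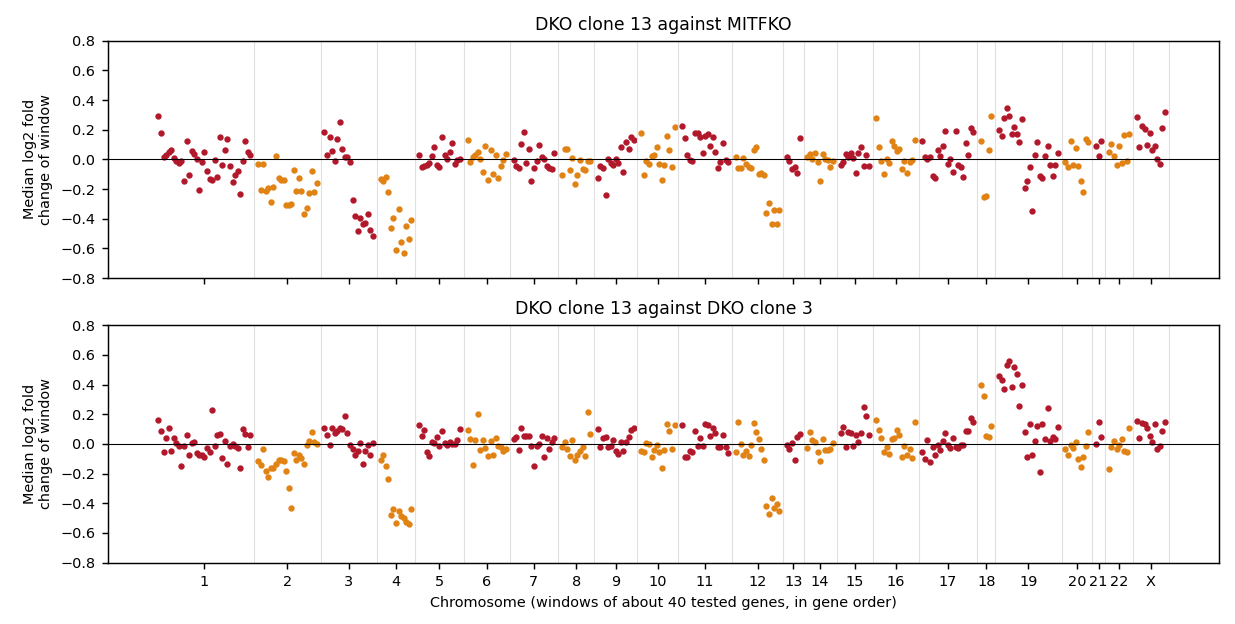
Median log2 fold change of windows of about 40 tested genes in gene order along each chromosome, for DKO clone 13 against MITFKO (upper panel) and DKO clone 13 against DKO clone 3 (lower panel). In the upper panel the later windows of chromosomes 3, 4 and 12 lie at -0.63 to -0.27, and in the lower panel those of chromosome 3 lie near 0 while those of chromosomes 4 and 12 remain low and the first 10 windows of chromosome 19 lie at 0.25 to 0.56.

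Set directly against clone 3, clone 13 had 2084 genes higher (14.3%) and 1952 lower (13.4%) of 14605 tested, of which 235 (1.61%) and 220 (1.51%) differed at least 2-fold. Without clone 13 replicate 2 the counts were 2077 (14.3%) and 1780 (12.2%), with 182 (1.25%) and 223 (1.53%) at least 2-fold. Glycolytic genes were higher in clone 13 in 18 of 21 cases and lower in 1 (15 and 1 without clone 13 replicate 2), and ribosomal proteins in 34 and 1 of 44 (27 and 1 without it). Mitosis genes were lower in clone 13 in 25 of 34 cases and higher in none (22 and 1 without replicate 2), and DNA replication genes were lower in 16 and higher in 1 of 37 (12 and 1 without replicate 2). ATF4 targets were lower in 13 and higher in 2 of 30 (14 and 2 without replicate 2), with ADM2 at 7.04, 5.76 and 4.75 CPM in clone 13 and 13.2, 10.0 and 11.4 CPM in clone 3 (log2 difference -0.99, adjusted p = 5.8e-05). Matrix proteoglycans, matricellular proteins and proteases were higher in 18 and lower in 4 of 34 (19 and 5 without replicate 2), and FN1 stood at 11942, 13388 and 11995 CPM in clone 13 and 6071, 5867 and 5992 CPM in clone 3 (1.06, adjusted p = 1.6e-11). Respiratory chain genes were higher in 5 and lower in 5 of 42 with and without replicate 2. Lysosomal genes were higher in 18 and lower in 8 of 44 (17 and 8 without replicate 2).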

How the data were processed

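The deposited values were raw counts of reads per gene symbol, 1 file per library, for 28278 symbols. The submitters' processing notes name the build hg19 and the tools STAR, featureCounts and DESeq2, without versions. Use of strand and the treatment of reads with several matches were not given in the sources used here, so overlapping, antisense and near-identical genes are uncertain. Symbols were matched to RefSeq names and gene order on GRCh38.p14, 27633 of 28278 by symbol or synonym. Since the counts were made on hg19, the only coordinates given are those of the RefSeq promoters.

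The test was that of edgeR 4.0.16, run in R 4.3.3 (filterByExpr by group, TMM scaling, robust quasi-likelihood F-test, Benjamini-Hochberg adjustment over all genes tested) in 1 model of the 10 SKMEL28 libraries, with a call at an adjusted p under 0.05. The model takes the single wild-type library to have the spread of the replicated groups. CPM values were computed here from the counts with TMM scaling. The steps were tested on simulated data. Counting intervals were not used, and read counts without molecular identifiers are not independent molecules.

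The comparison and the 35 gene lists were chosen with earlier results of these data known, and no p-value was computed for a list. Named by rule were the MiT/TFE family, the 10 largest rises and 10 largest falls, up to 4 members per list, and the 5 largest differences from clone 3 in each direction. Rule genes had a mean of at least 5 CPM in the higher group, no overlap between libraries, and a call with and without clone 13 replicate 2. ATF4, DDIT3, ASNS, CHAC1, PSAT1, PHGDH, ALDH18A1, CTSD, ERN1, HERPUD1, XBP1, FLCN, SLC2A3, VEGFA, MKI67, CCND1, MYC, FOS, JUN, SOX10, TYRP1, CD68, GGCX and RNF181 were named after their values were seen. Alternatives were other scaling factors, no filter on low counts, DESeq2 1.42.0, other library sets, a block of replicate numbers, other thresholds and each library left out in turn. Results for a few genes that the naming rule would include are not reported here.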

Additional observations from a re-analysis of the deposited data

Results flagged for a closer look

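A total of 10 genes, the 5 largest differences in each direction among genes called against both MITFKO and clone 3, differed between clones 13 and 3 by the direct test in edgeR, the same test by which they were picked. It sets 1 clone against 1 clone, so TFE3 editing and other differences between the clones cannot be told apart. C4orf3 stood at 23.4, 32.6 and 20.6 CPM in clone 13, 1.74, 1.44 and 2.13 CPM in clone 3 and 14.5, 14.1 and 10.9 CPM in MITFKO (clone 13 minus clone 3, 3.85 on the log2 scale, adjusted p = 1.7e-10). FGF1, a fibroblast growth factor, stood at 50.2, 38.4 and 48.5 CPM in clone 13, 11.3, 9.76 and 11.7 CPM in clone 3 and 19.5, 19.8 and 21.2 CPM in MITFKO (2.07, adjusted p = 4.8e-11). In both genes clone 13 lay above MITFKO and clone 3 below it. TFE3 itself differed by 2.29. NPTX1 differed by 2.15 (adjusted p = 0.0287, and 1.36 without clone 13 replicate 2), a call that ended without any 1 of the clone 3 libraries (adjusted p = 0.0639 to 0.1) and in a fit of those 2 groups alone (0.0806). CA9 differed by 2.11 (adjusted p = 0.0279, and 1.47 without clone 13 replicate 2), a call that ended without clone 3 replicate 1 (0.0941) or 3 (0.0779) and in a fit of those 2 groups alone (0.0771).

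In the other direction VAMP5 differed by -6.03, VAMP8 by -3.88, SLC5A4 by -3.07, the interferon-induced gene SAMD9L by -2.60 and the vitamin B12 carrier TCN1 by -2.43. VAMP5 stood above MITFKO in clone 3 and far below it in clone 13. SAMD9L stood at 1.01, 0.533 and 1.19 CPM in clone 13, 5.38, 5.54 and 5.69 CPM in clone 3 and 6.16, 5.28 and 6.07 CPM in MITFKO. TCN1 stood at 8.34, 7.12 and 5.98 CPM in clone 13, 41.5, 37.3 and 35.99 CPM in clone 3 and 17.8, 15.7 and 18.1 CPM in MITFKO. All of these differences had the same direction without clone 13 replicate 2, which the rule that picked the genes required.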

How the results depend on the processing

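Calls against MITFKO ran from 2507 to 3168 higher and 2417 to 2910 lower with each library left out in turn, and calls against clone 3 from 1578 to 2118 higher and 1354 to 1828 lower. At least 2-fold changes numbered 351 higher and 412 lower against MITFKO, and 235 and 220 against clone 3. At an adjusted p under 0.01, 1338 were higher and 1143 lower than clone 3. With chromosomes 2, 3, 4 and 12 left out, lower calls numbered 1852 against MITFKO and 1166 against clone 3, with fewer genes tested. With all libraries and DESeq2 size factors 3122 genes were higher and 2820 lower than MITFKO, with upper-quartile factors 2834 and 3127, and with DESeq2 3067 and 2747.

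Deviations of same-numbered libraries from their group means correlated weakly, at 0.0986 or less, and most for replicate 2 of clones 13 and 3. Clone 3 replicate 2 also had the highest median of its group for hypoxia-induced genes, 0.65 against 0.36 and 0.37 in replicates 1 and 3. The same held for glycolytic genes (0.67 against 0.45 and 0.43), and its mitosis median was the lowest (0.41 against 0.55 and 0.53). Whether the replicate 2 libraries of the clones share a cause was not tested. With a block of replicate numbers 3124 genes were higher and 3097 lower than MITFKO, and 2302 and 2108 than clone 3. Of 2212 log2 fold changes of genes named by rule under the alternatives, 2172 kept their side of the threshold, 35 lost their call and 5 gained one. None reversed where either value was called. The threshold of 0.01 used the main fold changes, so there only the call could differ. Genes named after their values were seen, such as VEGFA and SLC2A3, were not counted there. Rule genes outside the MiT/TFE family had to be called without clone 13 replicate 2, so their agreement in that setting was fixed in advance. They were also picked for large changes in the same data. Beyond the genes given above, FOSB and HLA-C lost calls without single libraries (FOSB without clone 13 replicate 1 or 3 or MITFKO replicate 2 or 3, HLA-C without MITFKO replicate 1 or 2). The median of the ATF4 list was -1.39 with the trend of fold change on GC content removed, and that of the glycolytic list 0.98. The number of clones, 1 for each label set, and genes with few counts limit these results.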
